A study of Mus musculus with 4 samples.

Results

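The genes described here encode the proteins of the mitochondrial ribosome. They were chosen by symbol: every row of the deposited table whose identifier belongs to a protein-coding gene with a symbol that starts with Mrpl or Mrps followed by a digit. The rule found 77 genes among the 38293 rows, 48 of the large subunit (Mrpl) and 29 of the small subunit (Mrps). All 77 passed the filter on low counts, and the annotated gene Mrpl33 was not analysed here.

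The libraries came from ventricles of single E12.5 mouse embryos on a C57BL/6 background, taken from litter 6 after the atria and valve region had been cut away. Each group had 2 embryos, matched between the groups by somite number. The conditional knockout group, cKO, had the genotype Hif1alphaflox/flox/Nkx2.5Cre/+, and the control group had Hif1alphaflox/flox/Nkx2.5+/+. Both groups therefore carried floxed Hif1a on both chromosomes, and only cKO carried Cre recombinase, expressed from the Nkx2-5 locus that is active in heart muscle precursors. No group carried Cre without floxed Hif1a, so an effect of Cre or of the altered Nkx2-5 allele and an effect of Hif1a loss cannot be told apart.

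Mitochondria have their own ribosome, which translates the few messenger RNAs encoded by mitochondrial DNA. Its ribosomal RNAs are made inside the organelle, while its proteins are encoded in the nucleus, made in the cytosol and imported. The small subunit reads the messenger RNA, and the large subunit joins amino acids and releases the growing chain at its tunnel exit, next to the inner membrane. The products are subunits of the respiratory chain and of ATP synthase, on which heart muscle comes to depend as it matures. Hif1a encodes the subunit of HIF-1 that oxygen controls, and this transcription factor is known for raising glycolysis and restraining mitochondrial respiration. The comparison asked which transcripts differ in the ventricle when this gene is deleted in heart muscle precursors.

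The expected counts summed to 8561687 in the shallowest library, control replicate 2, and to 19801300 in the deepest, cKO replicate 3. Levels are given as CPM, a gene's count scaled to the size of its library after TMM scaling. Hif1a itself had 716.3 and 662.7 CPM in cKO and 530.1 and 552.4 CPM in control, a count over the whole gene that does not check the deletion of part of it. Nkx2-5 had 44.3 and 42.1 CPM in cKO and 55.9 and 64.95 CPM in control. The 10 heart muscle markers, such as Tnnt2, summed to between 39630 and 43710 CPM in every library, and none was at 0. Both cKO libraries stood above both controls for 1 of them, Tnni1, and below for 3, Myh7, Actc1 and Myl7. Of all genes tested, 19.4% and 18.8% did so. Xist, expressed from the inactive X chromosome of females, stood at 2.11 CPM in cKO replicate 3 and between 1754 and 2097 CPM in the other libraries. The sexes were therefore unequal between the groups, and no member lies on a sex chromosome.

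Most mitochondrial ribosomal protein genes had slightly higher values in the cKO ventricles, and none passed the test. Of the 48 large subunit genes 43 had a positive log2 fold change (cKO over control), with a median of 0.145, and of the 29 small subunit genes 21 did, with a median of 0.122. Over all 13711 genes tested, 49.9% had a positive log2 fold change and the median was -0.000309. The median standard error (SE) of a single member's log2 fold change was 0.104. In bulk tissue, fewer cells of a type and less RNA per cell cannot be told apart.

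In edgeR's quasi-likelihood test with Benjamini-Hochberg adjustment over all genes, 0 of 77 members were called at an adjusted p of 0.05, against 0.511% of all genes tested (0.146% higher and 0.365% lower in cKO). DESeq2 and limma-voom also called 0. At an unadjusted p under 0.05, edgeR gave 7 members, all with higher values in cKO and none lower. Of all genes 6.97% passed that threshold, 3.39% with higher and 3.58% with lower values in cKO. At the same unadjusted threshold DESeq2 gave 0 members, against 3.71% of all genes, and limma-voom 7, against 7.33%. The smallest adjusted p of any member in edgeR's test was 0.470, for Mrpl47.

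Both cKO libraries stood above both controls for 43 of the 77 members, or 55.8%, against 19.4% of all genes tested. Both stood below the controls for 2 members, Mrps12 and Mrpl54, or 2.60%, against 18.8% of all genes. For the other 32 members the groups overlapped. By subunit, the cKO libraries stood above the controls for 32 of 48 large and 11 of 29 small subunit genes. The difference between these shares was not tested.

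**Figure D1:**
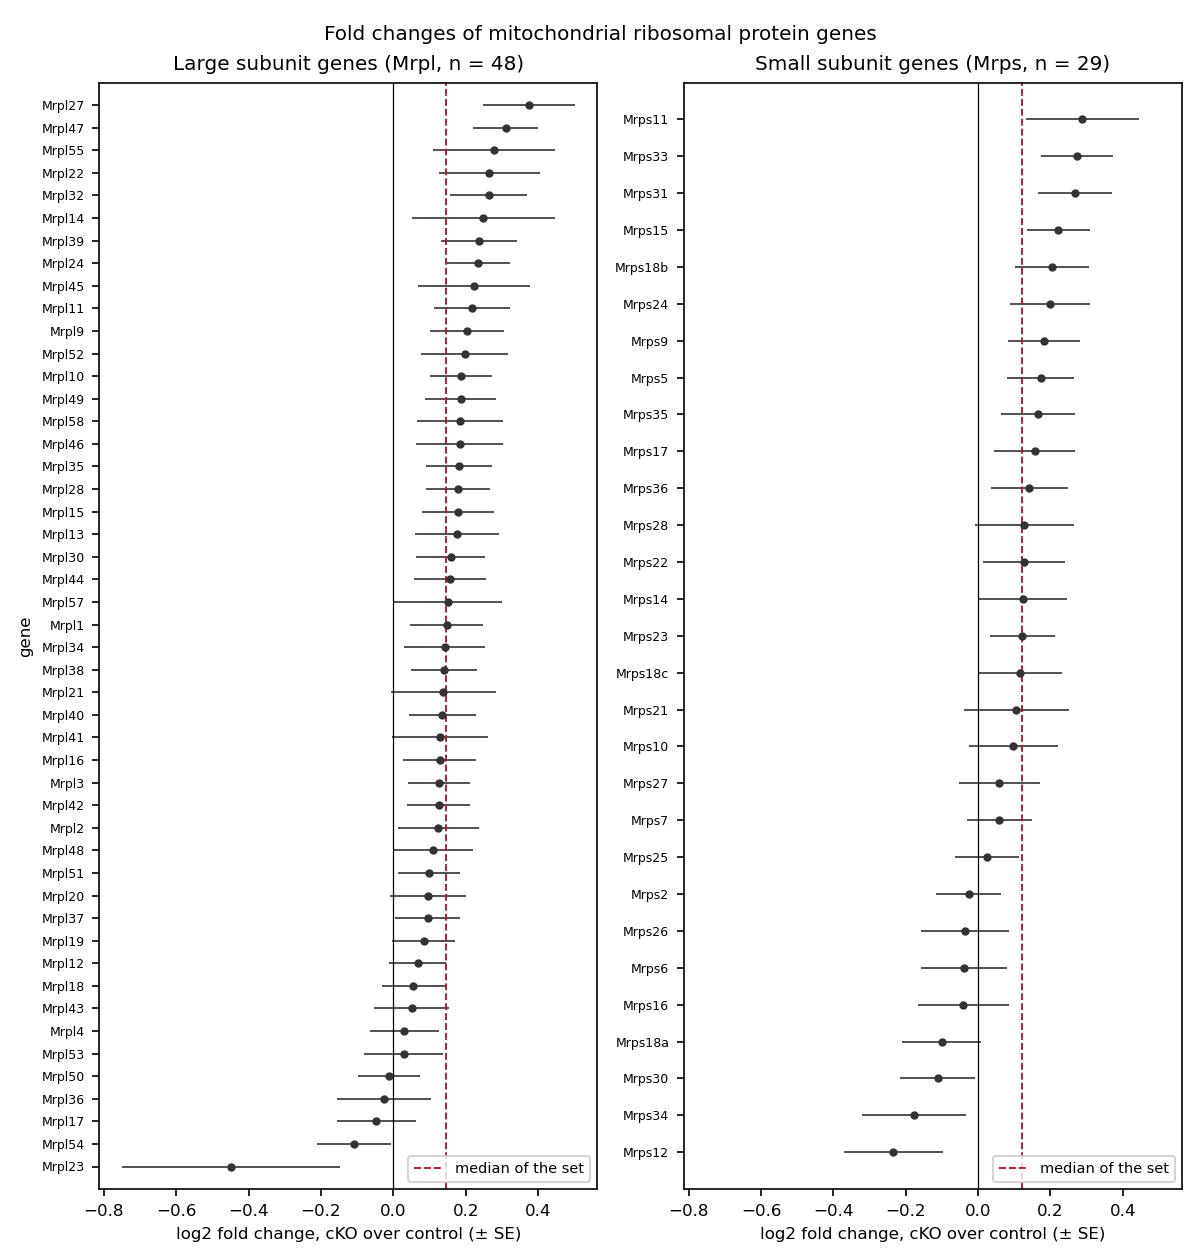
Log2 fold change of cKO over control for each of the 48 large subunit genes (left) and 29 small subunit genes (right), with bars of 1 SE and a dashed line at the median of the set (0.145 and 0.122). Most points lie between 0 and 0.3, and Mrpl23 and Mrps12 have the lowest values.

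The shift depended on which control it was measured against. The large subunit genes summed to 2028 and 2023 CPM in cKO replicates 2 and 3, and to 1918 and 1770 CPM in control replicates 2 and 3. The small subunit genes summed to 1065 and 1076 CPM in cKO and to 1027 and 976.2 CPM in control. Both cKO libraries were thus above both controls for either sum, and control replicate 3 was the lowest library.

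Gene by gene, the cKO libraries differed from each other by a median log2 ratio of -0.000503 over the 77 members. The control libraries differed by 0.128 (replicate 2 over replicate 3), with 60 of 77 members higher in replicate 2. Against control replicate 2, the median was 0.0591 for cKO replicate 2 and 0.0866 for cKO replicate 3, with 56 and 59 of 77 members higher in cKO. Against control replicate 3, the medians were 0.191 and 0.189, with 66 and 68 members higher. The difference between the controls was therefore larger than the difference between either cKO library and control replicate 2.

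Fits without 1 control moved the medians in the same way. Without control replicate 3 the median was 0.0792 for the large subunit and 0.0317 for the small subunit. Without control replicate 2 it was 0.205 and 0.193. No member was called in any of the 4 fits that leave out 1 library. At an unadjusted p under 0.05, edgeR gave 21 members without control replicate 2, when 1771 of 14202 genes passed it, and 2 without control replicate 3, when 754 of 14207 did. It gave 1 without cKO replicate 2, when 752 of 14060 genes passed, and 4 without cKO replicate 3, when 913 of 14040 did.

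**Figure D2:**
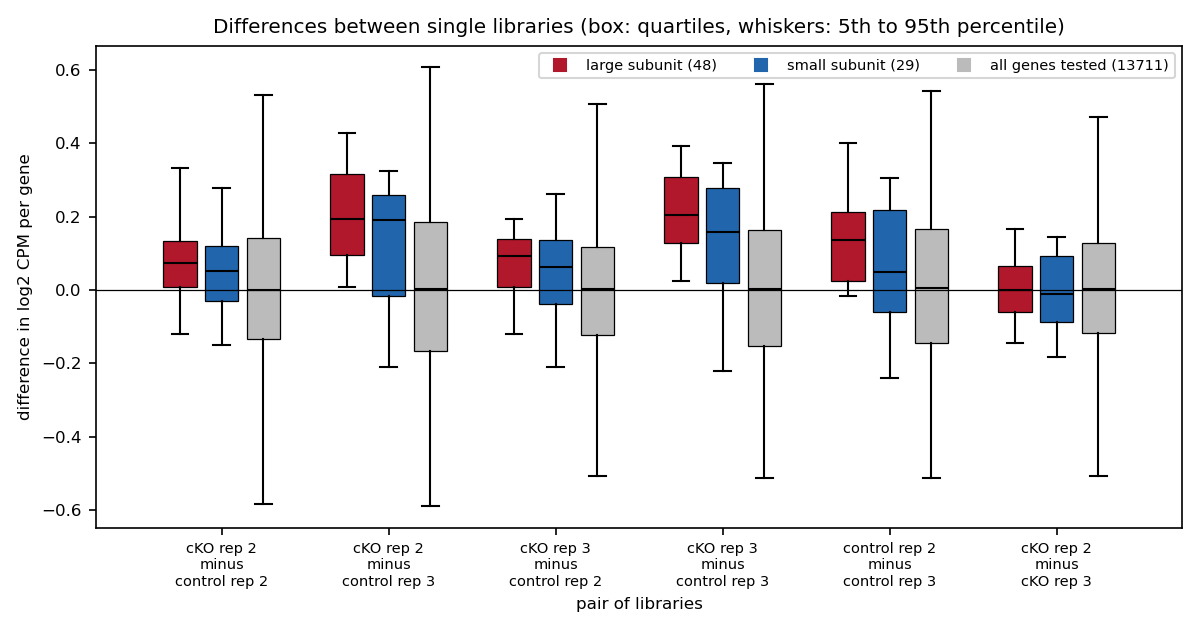
Differences in log2 CPM per gene between single libraries, for the 48 large subunit genes, the 29 small subunit genes and all 13711 genes tested (box from the first to the third quartile, line at the median, whiskers from the 5th to the 95th percentile). The medians of cKO replicate 2 minus cKO replicate 3 lie near 0, and 40 of the 48 large subunit genes were higher in control replicate 2 than in control replicate 3 (median 0.135).

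Markers of other cell types also differed between libraries. The 6 immune markers summed to 69.1 CPM in control replicate 3 and to between 29.6 and 36.6 CPM in the other libraries. The 12 erythroid markers summed to 2841 CPM in cKO replicate 2 and to between 5366 and 6870 CPM in the others. All 12 had negative log2 fold changes, and 2 had both cKO libraries below both controls (18.8% of all genes). The 8 endothelial and endocardial markers summed to 1341 and 1211 CPM in cKO and to 1438 and 1495 CPM in control. All 8 had negative log2 fold changes, and 6 had both cKO libraries below both controls. The tested smooth muscle markers summed to 828.0 and 956.5 CPM in cKO against 1261 and 1270 CPM in control. Epicardial markers summed to 328.5 and 240.5 against 304.5 and 336.1 CPM, with Krt19 called lower (adjusted p = 0.0347, edgeR). Cushion markers summed to 172.5 and 332.3 against 276.5 and 292.4 CPM, though 4 of 6 had positive log2 fold changes (median 0.313). The 2 liver markers that passed the filter summed to 14.0 and 8.99 against 8.98 and 14.8 CPM. The part of these cells in the values of the ribosomal protein genes was not tested.

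Within the large subunit the genes are described by where their proteins sit, in groups named from background knowledge after the values had been seen. The groups need not hold every protein of a site. Among the genes placed in no group were Mrpl17, Mrpl53 and Mrpl54, with log2 fold changes of -0.047, 0.029 and -0.11. The genes taken for the tunnel exit, where the new chain leaves the ribosome, had the widest range of these groups. Among the genes taken, that range rested on Mrpl23 alone (-0.45). The reads of Mrpl23 are shared with another locus, as described below. The others ran from 0.16 for Mrpl44 to 0.31 for Mrpl47. Of Mrpl22, Mrpl23, Mrpl24, Mrpl39, Mrpl44, Mrpl45 and Mrpl47, 6 of 7 had positive log2 fold changes, with a median of 0.235. As the group leaves out Mrpl17, which had a negative value, its count does not describe the site as a whole.

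Mrpl47, a protein of the tunnel exit, had 41.4 and 40.0 CPM in cKO and 32.9 and 32.6 CPM in control. The groups did not overlap, and the replicates of each lay close together. Its log2 fold change was 0.31 ± 0.09 (SE, n = 2 per group), and it did not pass (adjusted p = 0.470). The gene lies on chromosome 3, 32725397 to 32737605, minus strand (GRCm38), and its exons share 616 bases with Ndufb5 and 452 bases with Actl6a on the opposite strand. The library kit does not mark strand, so reads from those bases cannot be assigned to 1 gene. Ndufb5, which encodes a subunit of respiratory complex I, had a log2 fold change of 0.17 ± 0.10, and Actl6a, which encodes an actin-related chromatin protein, 0.095 ± 0.088.

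Mrpl24 (chromosome 3, 87919506 to 87923672, plus strand, sharing 594 exon bases with Rrnad1 on the other strand) had 63.5 and 66.3 CPM in cKO and 55.6 and 54.8 CPM in control. The cKO libraries were again both above the controls, with a log2 fold change of 0.24 ± 0.09 (adjusted p = 0.643). Mrpl45, which ties the ribosome to the inner membrane, had 58.0 and 60.4 CPM in cKO and 60.2 and 41.5 CPM in control. Its groups overlapped, because control replicate 2 lay between the cKO libraries while control replicate 3 was lower. Mrpl22 and Mrpl39 had log2 fold changes of 0.27 ± 0.14 and 0.24 ± 0.11, with cKO above control in each. Mrpl44 had 0.16 ± 0.10.

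The central protuberance is a crown of the large subunit that faces the small one. Its genes taken here, Mrpl18, Mrpl27, Mrpl38, Mrpl40, Mrpl46 and Mrpl48, had positive log2 fold changes in 6 of 6 cases (median 0.138). In 5 of them both cKO libraries stood above both controls (19.4% of all genes). As this group too was formed after the values were seen, its counts do not describe the site as a whole. Mrpl27, which reaches towards the site where amino acids are joined, had 32.3 and 26.9 CPM in cKO and 23.8 and 21.5 CPM in control. At 0.37 ± 0.13 (adjusted p = 0.574), it had the highest log2 fold change of the 77. It ranged from 0.25, without cKO replicate 2, to 0.51, without cKO replicate 3. The gene lies on chromosome 11, 94653767 to 94660089, plus strand, and shares 75 exon bases with Eme1 on the other strand. Mrpl38, Mrpl40 and Mrpl46 had 0.14 ± 0.09, 0.14 ± 0.09 and 0.18 ± 0.12.

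The stalk recruits the translation factors. Its genes taken here, Mrpl10, Mrpl11 and Mrpl12, had both cKO libraries above both controls in 3 of 3 cases (19.4% of all genes). Their median log2 fold change was 0.187. The group was formed after the values were seen and leaves out Mrpl53 (0.029) and Mrpl54 (-0.11). Its count therefore does not describe the site as a whole. Mrpl10, the stalk base, had 58.8 and 59.5 CPM in cKO and 51.7 and 52.3 CPM in control. Each pair of replicates differed by less than 1 CPM, and the log2 fold change was 0.19 ± 0.09 (adjusted p = 0.708). Mrpl12 had 111.6 and 113.7 CPM in cKO and 107.1 and 107.9 CPM in control, a log2 fold change of only 0.068 ± 0.078. Mrpl11 had 0.22 ± 0.10.

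Mrpl32 is a large subunit protein that must be cut by an inner membrane protease before it can be assembled. It had 31.4 and 31.9 CPM in cKO and 28.3 and 24.5 CPM in control, with a log2 fold change of 0.26 ± 0.11 (adjusted p = 0.687). Mrpl55 had 15.7 and 17.6 CPM in cKO and 15.7 and 11.9 CPM in control, so its groups overlapped. Its 0.28 ± 0.17 became 0.087 without control replicate 3. Mrpl58, which also acts as a peptide release factor for stalled ribosomes, had 0.18 ± 0.12.

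Of the 5 large subunit genes with negative values, Mrpl54 and Mrpl17 were among the lowest. Mrpl54 had 26.9 and 26.6 CPM in cKO and 30.1 and 27.6 CPM in control (log2 fold change -0.11 ± 0.10, adjusted p = 0.873). Mrpl17 had 27.2 and 26.4 CPM in cKO and 25.8 and 29.4 CPM in control, with overlapping groups and a log2 fold change of -0.047 ± 0.108. Its value turned to 0.055 without control replicate 3.

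Mrpl23 had the lowest value of the 77, and its reads are shared with another locus. It had 4.65 and 3.37 CPM in cKO and 6.15 and 4.63 CPM in control, a log2 fold change of -0.45 ± 0.30 (adjusted p = 0.800). The gene lies on chromosome 7, 142532686 to 142540747, plus strand. The processed pseudogene Mrpl23-ps1 (chromosome 2, 74591330 to 74591909, minus strand) matches its transcript at 100% identity over 540 bases, and its copy of the 438 coding bases is identical. The first 60 coding bases show why reads from them have no single origin. They are given as in the GENCODE transcript and were found unaltered in Mrpl23-ps1.
Mrpl23: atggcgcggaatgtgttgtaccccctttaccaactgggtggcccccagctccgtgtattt

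The deposited expected counts gave Mrpl23-ps1 270.3 and 426.4 in cKO and 207.2 and 169.5 in control, and gave Mrpl23 45.7 and 66.6 in cKO and 51.8 and 42.5 in control. With the copy added, the value was 0.056 on the log2 scale (adjusted p = 0.963), so the sign of its value depended on how reads were divided. In all, 17 members had a near-identical copy elsewhere (at least 95% identity over at least 300 bases), and 11 of these had a copy that is a row of the table. Among copies at separate loci that are rows, those other than Mrpl23-ps1 reached at most 4.12 expected counts in any library, and copies without a row were not analysed here. Exons of 32 members overlapped exons of another gene. The 34 members with neither an overlap nor a copy had a median log2 fold change of 0.138, with 28 positive. Both cKO libraries stood above both controls for 17 of them and below for 2, against 19.4% and 18.8% of all genes.

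Small subunit genes varied as much as those of the large subunit, with a standard deviation of log2 fold changes of 0.134 against 0.126. The largest positive values were those of Mrps11, Mrps33 and Mrps31. Mrps33 had 58.0 and 52.5 CPM in cKO and 47.8 and 43.4 CPM in control. The groups did not overlap, though the replicates were about as far apart as the nearest libraries of the 2 groups (log2 fold change 0.27 ± 0.10, adjusted p = 0.625). Mrps31 had 35.9 and 39.4 CPM in cKO and 32.9 and 30.0 CPM in control (0.27 ± 0.10, adjusted p = 0.648). Mrps15, of the bacterial-type core of the subunit, had 44.9 and 44.4 CPM in cKO and 38.7 and 37.9 CPM in control. Its replicates were close and the groups apart, with 0.22 ± 0.09 (adjusted p = 0.674).

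Mrps11 had 15.3 and 13.8 CPM in cKO and 11.0 and 12.7 CPM in control, a log2 fold change of 0.29 ± 0.16. It lies head to head with the large subunit gene Mrpl46 on chromosome 7, and the 2 genes share 173 exon bases on opposite strands. Mrpl46 had 22.1 and 24.4 CPM in cKO and 21.8 and 19.4 CPM in control, so the 2 neighbours had values on the same side, from partly shared bases.

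Mrps12, the decoding centre protein that helps to check the match of transfer RNA and codon, had values on the other side. It had 13.4 and 13.1 CPM in cKO and 15.6 and 15.4 CPM in control. The replicates were close, and both cKO libraries lay below both controls. Its log2 fold change was -0.23 ± 0.14 (adjusted p = 0.769), and it stayed between -0.25 and -0.22 when any 1 library was left out. The gene lies on chromosome 7, 28739641 to 28741820, minus strand, with no near-identical copy.

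The Mrps symbols do not all name proteins of the small subunit. In structures of the mammalian mitochondrial ribosome, the products of Mrps18a and Mrps30 sit in the large subunit, and that of Mrps36 belongs to an enzyme complex of the tricarboxylic acid cycle. Mrps18a had 26.4 and 24.96 CPM in cKO and 25.8 and 29.1 CPM in control (log2 fold change -0.10 ± 0.11). Mrps30 had 35.6 and 41.3 CPM in cKO and 42.4 and 41.2 CPM in control (-0.11 ± 0.10), and Mrps36 had 34.2 and 35.3 against 34.0 and 29.1 CPM (0.14 ± 0.11). The groups overlapped for Mrps18a and Mrps30, and for Mrps36 both cKO libraries lay above both controls, the nearest by a narrow margin. With the genes placed by structure, a grouping chosen after seeing the data, the medians were 0.141 for the large and 0.123 for the small subunit.

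The paralogs Mrps18a, Mrps18b and Mrps18c come from 1 bacterial ancestor and occupy different places. Mrps18b had 31.0 and 34.3 CPM in cKO and 27.8 and 29.1 CPM in control, with the groups apart and a log2 fold change of 0.20 ± 0.10 (adjusted p = 0.737). Mrps18c had 26.1 and 24.8 CPM in cKO and 25.2 and 21.7 CPM in control, and its groups overlapped (0.11 ± 0.12). Exons of Mrps18b share 638 bases with Gm16279 on the opposite strand, and those of Mrps18c share 250 bases with Gm43511 on the same strand. Reads from these shared bases have no single assignable gene. None of the 3 paralogs passed the test, and differences among their fold changes were not tested.

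**Figure D3:**
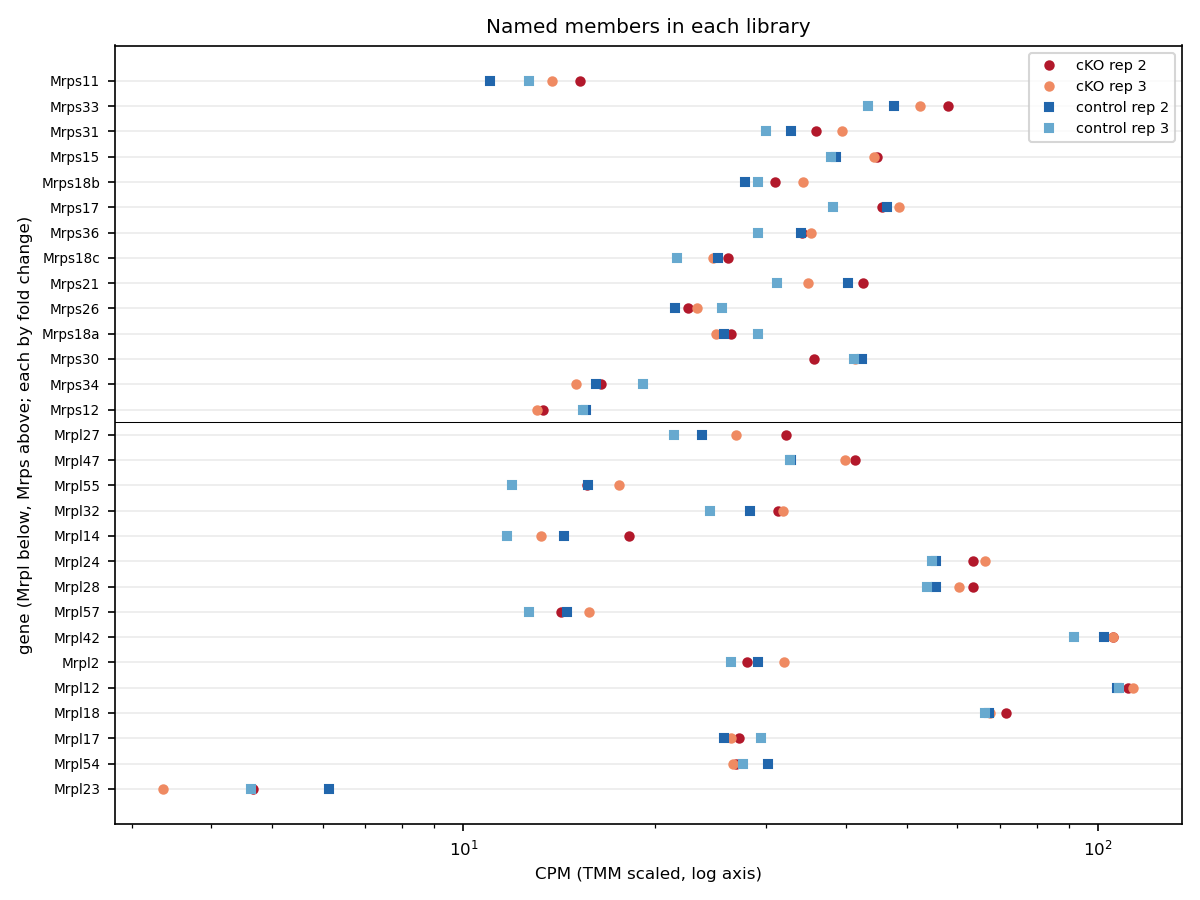
CPM on a log axis of the members named by rule, in each of the 4 libraries (circles cKO, squares control), with the large subunit below the line and the small subunit above it, each ordered by fold change. For Mrpl47, Mrpl24 and Mrps15 both circles lie to the right of both squares, and for Mrps12 to the left.

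Per kilobase of the principal transcript, members differed far more in level than between the groups. In control ventricles the large subunit genes ran from 3.78 CPM per kilobase for Mrpl17 to 145.5 for Mrpl42, with a median of 24.4. The small subunit genes ran from 5.50 for Mrps26 to 73.3 for Mrps21, with a median of 25.1. Below Mrpl42 in the large subunit stood Mrpl12 at 81.7 and Mrpl18 at 54.9, and above Mrpl17 stood Mrpl57 at 4.73. Below Mrps21 stood Mrps36 at 45.1 and Mrps33 at 41.2, and above Mrps26 stood Mrps17 at 8.38. These levels depend on the transcript chosen, and long annotated ends lower them. Mrpl42 had 105.7 and 105.6 CPM in cKO and 102.3 and 91.5 CPM in control, and Mrps21 had 42.6 and 34.9 against 40.3 and 31.2 CPM. For Mrps21 the replicates of each group lay farther apart than the group means.

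The median level of the small subunit genes over that of the large, per kilobase, was 0.940 and 0.977 in cKO and 0.981 and 1.09 in control. Control replicate 3 was the 1 library in which the small subunit median was the higher.

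Members lie on 17 chromosomes, and 7 of them lie within 20 Mb of Nkx2-5 on chromosome 17, the locus that carries Cre in the cKO embryos. Mrpl28 is the nearest, 0.712 Mb away (26123500 to 26126613, plus strand). It had 63.4 and 60.4 CPM in cKO and 55.6 and 53.7 CPM in control, with the groups apart and a log2 fold change of 0.18 ± 0.09 (adjusted p = 0.735). Mrps34, at 1.94 Mb, had 16.5 and 15.02 CPM in cKO and 16.2 and 19.2 CPM in control. Its groups overlapped, with a value on the other side (-0.18 ± 0.14). Its exons share 763 bases with Nme3 on the same strand and 1309 bases with Mapk8ip3 on the opposite strand. Reads from those bases cannot be assigned to a single gene. The other five, from Mrps18b at 9.07 Mb to Mrpl2 at 19.8 Mb, ranged from -0.10 for Mrps18a to 0.25 for Mrpl14. Mrpl18 had 0.055 ± 0.087 and Mrpl2 0.12 ± 0.11. The nearest members thus had values of both signs, that of Mrps34 from partly shared bases.

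Promoters of these genes are known for sites of NRF1, of ETS factors such as GABPA, and of YY1, which act on many nuclear genes for mitochondrial proteins. RefSeq promoter windows on GRCm38.p6, from 250 bases before to 50 bases after a start, were matched for 68 of the 77 members (74 windows). The letters CCGGAAG, of ETS factors, stood on either strand in 33.8% of the members' windows, against 16.9% of the windows of genes tested. AAGATGG, of YY1, stood in 17.6% against 6.80%, and CATGCGC, the NRF1 core, in 9.50% against 6.60%. The core of the hypoxia response element bound by HIF-1, taken as ACGTG or GCGTG, stood in 66.2% of the members' windows and 61.3% of those of genes tested. The ETS and YY1 letters can share the bases AAG. A match is a description, not a site.

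Members with and without the hypoxia letters had median log2 fold changes of 0.142 (45 genes) and 0.136 (23 genes). With and without the ETS letters they had 0.115 (25 genes) and 0.157 (43 genes), and with and without the NRF1 core 0.204 (7 genes) and 0.129 (61 genes). For the YY1 letters the medians were 0.125 with (13 genes) and 0.139 without (55 genes). The 80 bases before the start are shown for 4 genes that differ in these letters and in their values, with motif matches in capitals. Mrpl32 (chr13:14613038-14613117, minus strand) holds the NRF1 core on both strands, Mrpl27 (chr11:94653711-94653790, plus) the ETS letters, and Mrpl28 (chr17:26123423-26123502, plus) the hypoxia letters. Mrps12 (chr7:28741822-28741901, minus), with the lowest value of the small subunit, holds none of them in this stretch.
Mrpl32: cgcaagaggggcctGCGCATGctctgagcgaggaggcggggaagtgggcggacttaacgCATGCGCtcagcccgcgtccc
Mrpl27: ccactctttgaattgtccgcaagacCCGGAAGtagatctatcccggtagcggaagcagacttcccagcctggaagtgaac
Mrpl28: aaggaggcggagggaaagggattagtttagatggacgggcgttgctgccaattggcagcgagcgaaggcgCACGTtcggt
Mrps12: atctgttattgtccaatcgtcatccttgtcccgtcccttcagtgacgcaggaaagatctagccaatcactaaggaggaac

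The other parts of mitochondrial translation were taken from lists of genes, none of which had a member past edgeR's test. The lists numbered 5 ribosomal proteins with other names, 2 ribosomal RNAs, 15 translation factors, 30 genes of ribosome assembly, 12 of mitochondrial DNA transcription and upkeep, 13 mitochondrial messenger RNAs, 19 genes of protein import, folding and breakdown, and 10 regulators.

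The 5 ribosomal proteins without an Mrp symbol had positive values in 5 of 5 cases (median log2 fold change 0.117). Aurkaip1, of the small subunit, had 37.9 and 38.4 CPM in cKO and 32.3 and 32.4 CPM in control, with close replicates and the groups apart (0.24 ± 0.09, adjusted p = 0.646). Chchd1 had 51.5 and 54.0 CPM in cKO and 48.7 and 35.7 CPM in control, where control replicate 3 was again the low library.

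The ribosomal RNAs had the largest values of any of these lists. mt-Rnr1, the small subunit RNA, had 277.4 and 285.5 CPM in cKO and 214.1 and 133.8 CPM in control, a log2 fold change of 0.70 ± 0.18 (adjusted p = 0.367). mt-Rnr2, the large subunit RNA, had 859.7 and 714.0 CPM in cKO and 703.9 and 445.3 CPM in control (0.45 ± 0.19, adjusted p = 0.708). In each the cKO libraries were above the controls, and the controls differed by a median log2 ratio of 0.67. Without control replicate 2, mt-Rnr1 had 1.07. Over the fits that leave out a single library, the median of the ribosomal RNAs ran from 0.278 to 0.947, against 0.574 with all libraries. The libraries were made from polyadenylated RNA, so these values count only the captured part of each ribosomal RNA.

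Translation factors had a median of 0.0862, with 10 of 15 positive. Oxa1l, which inserts new chains into the inner membrane, had the smallest p, with 97.7 and 96.3 CPM in cKO and 87.8 and 86.0 CPM in control (0.16 ± 0.08, adjusted p = 0.737). Tufm, the elongation factor that brings transfer RNA, had 0.14 ± 0.08, and Gfm1, which moves the ribosome along, 0.10 ± 0.08. Assembly genes had a median of 0.0351, with 19 of 30 positive, and Ngrn, needed for the stability of the large ribosomal RNA, had 0.21 ± 0.12. Genes of mitochondrial DNA transcription and upkeep had a median of 0.124, with Slirp, an RNA-binding protein that stabilises mitochondrial messenger RNA, at 0.22 ± 0.13 and the RNA polymerase Polrmt at -0.15 ± 0.11.

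The 13 mitochondrial messenger RNAs, which the ribosome translates, had a median of 0.0977. The groups overlapped for all 13: each stood higher in cKO replicate 2, and lower in cKO replicate 3, than in control replicate 2. mt-Co2 had 10050 and 8962 CPM in cKO and 9071 and 7063 CPM in control. Leaving out 1 library moved their median to between -0.046 and 0.248.

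Import, folding and breakdown genes had a median of 0.0944, with 16 of 19 positive. Both cKO libraries stood above both controls for 10 of them and below for 1, against 19.4% and 18.8% of all genes. Clpp, a protease of the matrix, had 27.1 and 28.5 CPM in cKO and 22.5 and 21.9 CPM in control (0.33 ± 0.10, adjusted p = 0.529). The 10 regulators, among them Nrf1, Gabpa and Yy1, were the exception, with 9 of 10 negative and a median of -0.104. Ppargc1a was positive (0.098 ± 0.106), and Gabpa lay near 0 (-0.029 ± 0.078). Both cKO libraries stood below both controls for 4 of the 10, against 18.8% of all genes, and the groups overlapped for 6. In cKO replicate 3 against control replicate 2, 5 of 10 were higher in cKO (median log2 ratio 0.00917). Mycn, which drives growth in the embryonic ventricle, had 33.8 and 43.2 CPM in cKO and 47.99 and 50.8 CPM in control (-0.35 ± 0.12, adjusted p = 0.623). Nrf1 had 32.6 and 33.1 CPM in cKO and 35.0 and 36.1 CPM in control, with the groups apart.

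**Figure D4:**
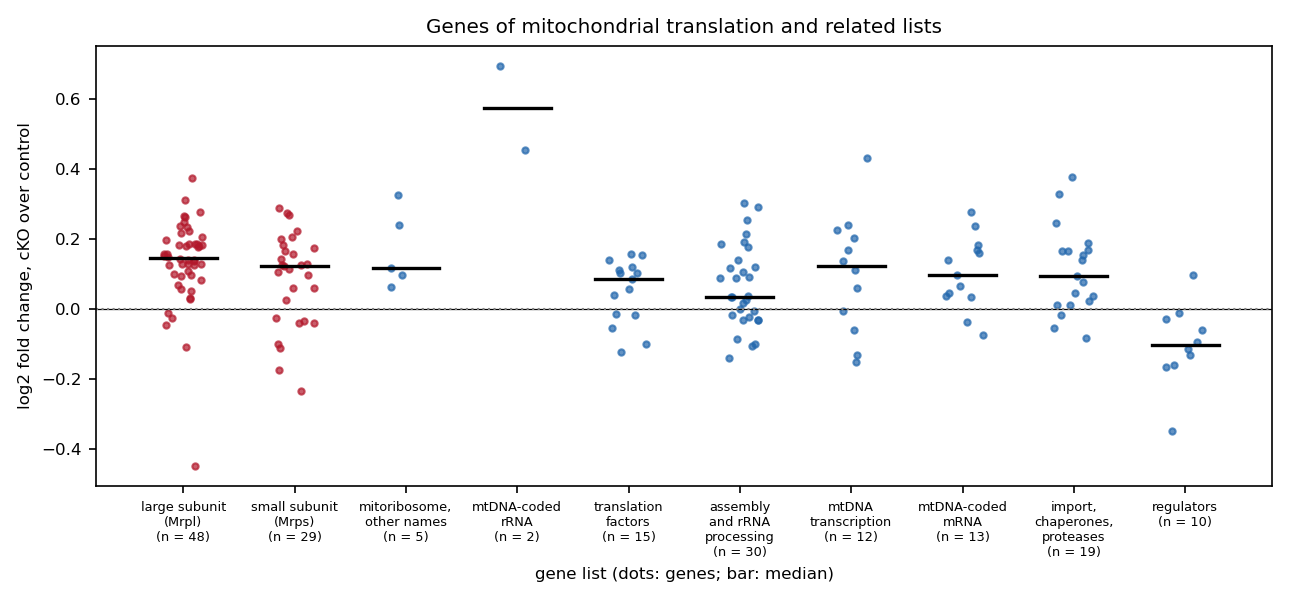
Log2 fold change of cKO over control for each gene (dots) of the large and small subunit sets and of 8 other lists of mitochondrial genes, with a bar at each median and lines at 0 and at the median of all genes. The 2 ribosomal RNAs lie highest, and 9 of the 10 regulators lie below 0.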

How the data were processed

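Expected counts, the estimates the authors deposited in a single table of genes, share out reads that match more than 1 gene and so are partly fractional. The tools named per the submitters' processing notes are RSEM 1.2.3, cutadapt 1.3 and CASAVA 1.8.2, with the build GRCm38. Which annotation was used is not given in the sources used here. Per the labels' protocols, 500 ng of RNA per library gave single reads of 75 bases.

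Symbols, positions and principal (APPRIS) transcript lengths came from GENCODE mouse release 21. Counts were rounded, filtered by edgeR's filterByExpr by group (minimum count 10, minimum total 15), which left 13711 genes, and scaled by TMM. edgeR 4.0.16 (R 4.3.3) tested cKO against control with glmQLFit and glmQLFTest on 2 residual degrees of freedom. The SE is the log2 fold change over the square root of F. Members had a median of 275.0 to 720.5 expected counts per library, and the lowest was Mrpl23. Copies were found with BLAST 2.17.0. The steps were tested on simulated data. They recovered 0 of 49 genes changed 1.1-fold, 2 of 47 at 1.25-fold, 24 of 48 at 1.5-fold and 36 of 49 at 2-fold. They also called 10 genes that had not been changed.

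Members and lists were chosen with earlier results of these data known. The text names, in each subunit set, the 4 smallest p, the 3 largest and 3 lowest log2 fold changes, the 3 highest and 2 lowest levels per kilobase, the Mrps18 paralogs, Mrps36, members within 20 Mb of Nkx2-5, and the smallest p of each list. Others were chosen after their values were seen. Replicates are single embryos of 1 litter, and in either group their counts differed beyond sampling noise (chi-square divided by its degrees of freedom, 5.54 in control, 12.2 in cKO). Alternatives were DESeq2 1.42.0, its size factors, upper-quartile scaling, limma-voom (limma 3.58.1), other filters, the replicate block, summed copies and leave-outs.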

Additional observations from a re-analysis of the deposited data

How the results depend on the processing

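In every setting run, 0 members were called, and 57 to 66 of 77 had positive values. Without 1 library each in turn, the positive large subunit genes numbered 38 to 45 and the small 19 to 21, and the medians ran from 0.0792 to 0.205 and from 0.0317 to 0.193. The sums gave log2 ratios of cKO over control of 0.135 (0.0786 to 0.194) for the large and 0.096 (0.0598 to 0.133) for the small subunit. Over all genes, 70 were called (39 without control replicate 3 to 141 without cKO replicate 2), 20 higher (15 to 72; 31 with DESeq2, 10 with a mean of at least 5 CPM) and 50 lower (24 to 69). Signs turned for Mrpl23 with copies summed (0.056), and with 1 library left out for Mrps21 (-0.067 to 0.30), Mrpl17 (-0.14 to 0.055) and Mrps26 (-0.15 to 0.096). The cause was not tested. With the replicate block 75 genes were called, 0 of them members, and the medians were 0.15 and 0.123. Same-numbered libraries deviated together at a correlation of 0.106 over genes, and the labels tie the number to no shared source. Where 1 library remained in a group, its variation was taken to be that of the other group. With 2 embryos per group and a median SE of 0.104, shifts of the size of the medians were not detectable for single members.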
